A study of Mus musculus with 54 samples.

Results

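The genes described here are 10 immediate early transcription factors and close relatives: Fos, Fosb, Fosl2, Jun, Junb, Egr1, Egr2, Nr4a1, Ier2 and Atf3. They were chosen by name, as the probe sets that the array's annotation assigns to these symbols. Earlier results of these data were known at that choice, so member counts beside shares of all genes are descriptions. Each had 1 probe set, so they make up 10 of 18759 gene symbols and 10 of 25917 probe sets.

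Immediate early genes are transcribed within minutes of a stimulus, by factors that are already present in the cell, and their transcripts are short-lived. FOS and JUN proteins pair to form the AP-1 factor, the EGR proteins are zinc finger factors, NR4A1 is an orphan nuclear receptor, IER2 is a nuclear protein, and ATF3 is a stress-induced relative of the AP-1 proteins. In muscle, brain and immune cells they are widely used as readouts of recent activity, growth factor signals or stress.

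Total RNA of 7 tissues from C57BL6 mice was hybridised to 54 Affymetrix mouse gene arrays. The labels give an age of 14 weeks for both groups. Swimming mice were 11 to 12 weeks old at the start. Sessions lengthened in steps of 10 min over 9 days of acclimation. The mice then swam for 3 weeks, in 2 sessions of 90 min a day, the first in the morning and the second in the afternoon, with 4 h of rest between them. Control mice carried the treatment label control, and how they were handled was not given in the sources used here. Each group held 4 control and 4 swim arrays, except liver (3 control and 4 swim) and muscle (4 control and 3 swim). The labels name no mouse, batch, pairing or delay between the last session and tissue collection, so p-values measure the spread between these arrays.

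The arrays' depth cannot be counted, and the small number of arrays per group limits the precision. Marker genes of each labelled organ were strong in it: the kidney list summed to between 81974 and 84927 in kidney arrays, the skeletal muscle list to between 96546 and 105879 in muscle, the hepatocyte list to between 35404 and 38828 in liver, the neuron list to between 35962 and 41518 in brain, and the adipocyte list to between 38730 and 65378 in visceral fat. Subcutaneous fat was mixed. Its B cell list summed to between 27293 and 34829 in control replicates 18, 19 and 20, to 263 in control replicate 17, and to between 187 and 12633 in the swim arrays. Swim replicate 22 reached 77962 for the kidney list and swim replicate 23 reached 20270 for the muscle list, against at most 135 and 1841 on the other arrays of that tissue. In liver, control replicate 52 reached 4318 for the muscle list against at most 326 elsewhere. In spleen, control replicate 26 reached 10921 for the hepatocyte list, against at most 1775 on the other spleen arrays. In bulk tissue, fewer cells of a type and less RNA per cell cannot be told apart.

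The sequences around the start sites of 4 of these genes are shown because they are the members, besides Egr1, that passed the swim test in at least 1 tissue. They come from RefSeq on GRCm38.p6, where 8 of the 10 genes were searched (Egr1 and Ier2 were not), and run from 250 bases before the annotated start to 50 after it, 5′ to 3′ on the gene's strand. Capitals mark matches on either strand to the letters TGACG (the core of a CREB site, called the short site below) and GCGNGGGCG (an EGR site), and to a TATA box.
Nr4a1, chr15:101266596-101266895, plus strand: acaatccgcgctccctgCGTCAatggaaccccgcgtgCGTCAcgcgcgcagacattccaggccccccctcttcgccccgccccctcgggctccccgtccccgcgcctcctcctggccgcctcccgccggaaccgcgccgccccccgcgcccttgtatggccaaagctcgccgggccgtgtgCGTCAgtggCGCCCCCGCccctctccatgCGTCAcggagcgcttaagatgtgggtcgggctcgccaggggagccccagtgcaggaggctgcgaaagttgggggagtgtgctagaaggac
Fosl2, chr5:32136222-32136521, plus strand: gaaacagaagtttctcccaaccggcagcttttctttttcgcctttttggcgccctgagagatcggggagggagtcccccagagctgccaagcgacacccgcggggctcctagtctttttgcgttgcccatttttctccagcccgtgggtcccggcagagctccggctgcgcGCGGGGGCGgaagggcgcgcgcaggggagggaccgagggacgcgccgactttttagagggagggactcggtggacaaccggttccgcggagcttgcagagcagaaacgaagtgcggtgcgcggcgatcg
Fosb, chr7:19309996-19310295, minus strand: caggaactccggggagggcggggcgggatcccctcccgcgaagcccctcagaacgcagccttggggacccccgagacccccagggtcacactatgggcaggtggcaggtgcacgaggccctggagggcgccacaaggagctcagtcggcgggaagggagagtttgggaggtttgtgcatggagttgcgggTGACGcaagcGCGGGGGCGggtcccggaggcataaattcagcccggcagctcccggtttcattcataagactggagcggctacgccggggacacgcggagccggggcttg
Junb, chr8:84978699-84978998, minus strand: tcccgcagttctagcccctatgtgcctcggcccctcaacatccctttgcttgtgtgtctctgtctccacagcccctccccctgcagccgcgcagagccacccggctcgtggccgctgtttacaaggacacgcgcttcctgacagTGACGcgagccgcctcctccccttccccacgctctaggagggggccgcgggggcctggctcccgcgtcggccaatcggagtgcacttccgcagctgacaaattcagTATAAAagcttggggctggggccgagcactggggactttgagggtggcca

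The Nr4a1 window held 4 short CREB sites, beginning 233, 213, 69 and 40 bases before the start, and 1 EGR site beginning 60 bases before it. In the Fosb window a short CREB site lay at 60 and an EGR site at 50 bases before the start, and the Fosl2 window held an EGR site at 79. The Junb window held 1 short CREB site, at 106 bases. Across the 8 genes searched, 6 had a short CREB site and 3 had an EGR site in at least 1 window, against 23.05% and 6.27% of 27025 genes in the table. The short site is contained in the full CREB letters TGACGTCA, which no member's window held, and neither did any hold the AP-1 letters TGANTCA or the NR4A letters AAAGGTCA. A CArG box, the letters bound by serum response factor, was found in Egr2 alone among the 8 genes searched. Egr1 and Ier2 were not searched, and sites more than 250 bases before the start lie outside the windows, so the other members may hold such boxes elsewhere. The letters TATAAA of a TATA box began at the annotated start in Junb and 33 bases before it in Fos, and 13.6% of 32851 windows hold them. These matches describe the letters in the windows and no binding was measured.

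At rest, the members differed in the tissue where each was highest. Levels are log2(signal + 16) on a scale shared by all 54 arrays, given as mean ± SD of the control arrays, and each probe set is compared only with itself. These levels are descriptions, without a test. Nr4a1 had the widest spread over tissues: 10.70 ± 0.37 (SD, n = 4) in muscle, 8.70 ± 0.46 in brain, 8.15 ± 0.02 in spleen, 7.66 ± 0.88 in subcutaneous fat, 7.07 ± 0.37 in visceral fat, 6.73 ± 0.75 (n = 3) in liver and 6.58 ± 0.29 in kidney. The muscle arrays did not overlap those of brain, and the brain arrays did not overlap those of spleen, whereas each later neighbour in the order overlapped.

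**Figure D1:**
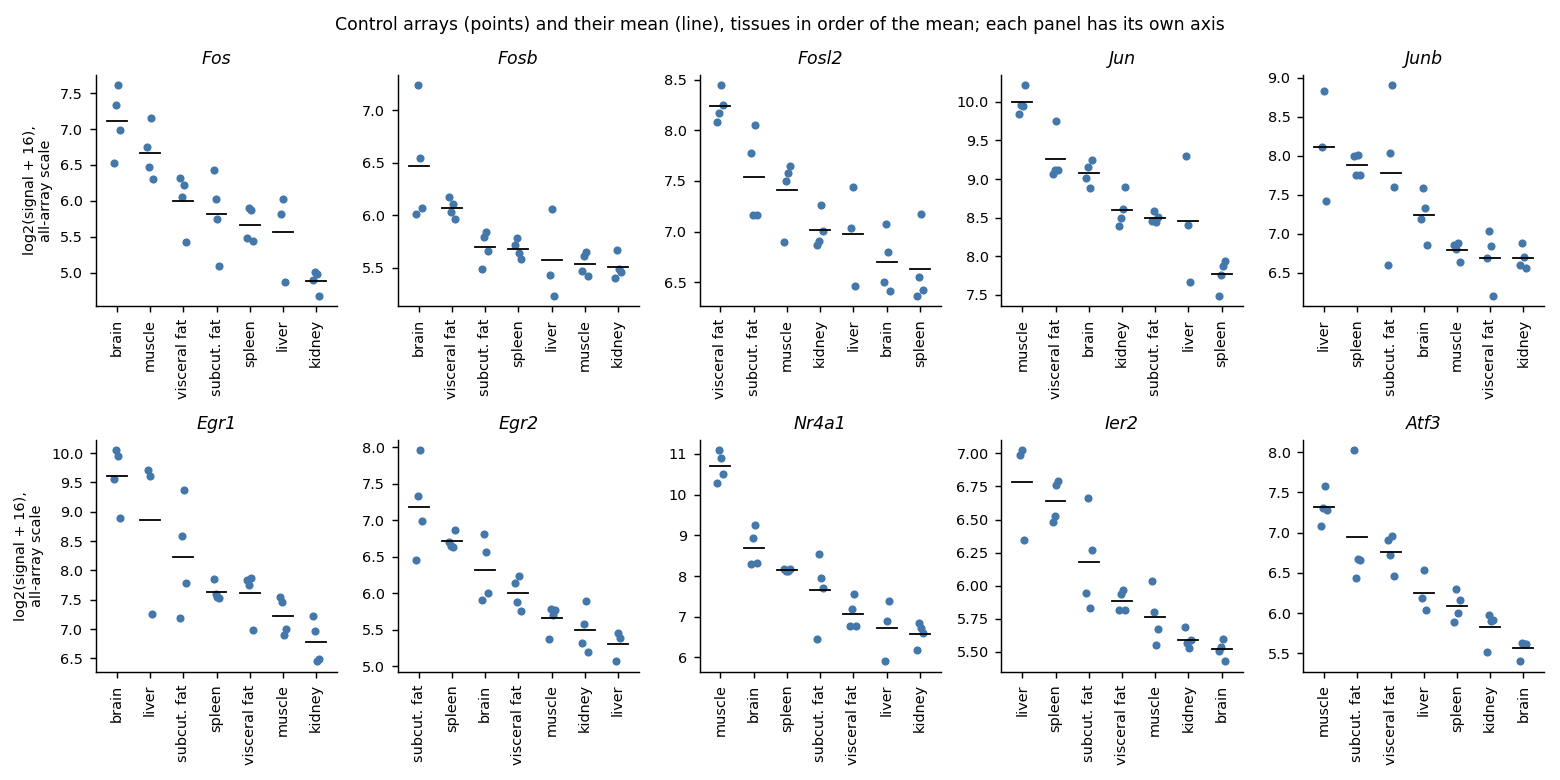
Signal of each gene in the control arrays of 7 tissues, as log2(signal + 16) on the scale of all arrays (vertical axis, different for each panel); points are arrays, lines are means, and tissues are ordered by the mean. Nr4a1 and Jun were highest in muscle, with control arrays apart from those of the next tissue, and Fosl2 was highest in visceral fat in the same way.

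Egr1, a zinc finger factor used as a marker of neuronal activity, was highest in brain, at 9.61 ± 0.53 (n = 4), and lowest in kidney, at 6.79 ± 0.38. Liver followed brain at 8.86 ± 1.38 (n = 3), and its 3 arrays ran from 7.26 to 9.71, with replicate 52 the lowest. Each neighbouring pair of tissues overlapped for Egr1. Egr2, a zinc finger factor known from myelinating glia and lymphocytes, was highest in subcutaneous fat (7.19 ± 0.63) and then in spleen (6.71 ± 0.11). Its lowest subcutaneous fat control array, at 6.46, was replicate 17, the one without the B cell signal.

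Of the FOS genes, Fos itself was highest in brain (7.11 ± 0.47, n = 4) and lowest in kidney (4.89 ± 0.15). Fosb, whose long-lived forms are studied in the brain, was also highest there (6.47 ± 0.57), and its brain and visceral fat arrays overlapped. Fosl2, which encodes FRA-2, was highest in visceral fat (8.23 ± 0.16), where no array overlapped those of subcutaneous fat (7.54 ± 0.45), and lowest in spleen (6.63 ± 0.37). Jun was highest in muscle (9.99 ± 0.16), apart from visceral fat (9.26 ± 0.33), and lowest in spleen (7.76 ± 0.20). For Junb the order began with liver (8.11 ± 0.70, n = 3), spleen (7.88 ± 0.14) and subcutaneous fat (7.78 ± 0.96), and these overlapped. Ier2 was highest in liver (6.79 ± 0.38, n = 3) and Atf3 in muscle (7.32 ± 0.20), and both overlapped the next tissue. With quantile scaling inside each tissue, Ier2 was instead highest in spleen and Atf3 in subcutaneous fat, and with the values as deposited Junb and Ier2 were highest in spleen.

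The question of the swim comparison was whether these genes stood at other levels in swimming mice than in control mice. Values below are log2(signal + 16), scaled by quantiles inside each tissue, and a fold change is on that scale, which understates the change of dim genes. Each tissue was fitted alone with limma after the dimmest 40% of probe sets were left out, and p-values were adjusted over all genes tested (Benjamini-Hochberg, threshold 0.05). Of 70 pairs of a member and a tissue, 51 were tested and 19 lay below the signal filter. Of the 51, 10 were lower in swimming mice past the threshold and 0 were higher. Differences were below 0 in 42 of 51, and these pairs repeat the same genes over tissues, so they are not independent. The median difference of all genes tested ran from -0.03 in visceral fat to 0.05 in subcutaneous fat. In 5 tested pairs, the mean of the lower group lay under the filter, so the higher group carried the gene past it: Fosb and Nr4a1 in visceral fat, Ier2 in subcutaneous fat, and Nr4a1 in liver and kidney.

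In visceral fat, 4 of the 8 members tested fell and 0 rose, where 12.1% of all genes tested fell and 11.3% rose. The 4 were Nr4a1, Egr1, Fosl2 and Fosb. Nr4a1 and Fosb entered this count through their control arrays, since their swim means lay under the filter. With no filter all 4 were also called. In kidney 2 of 5 fell, Nr4a1 and Egr1, against 13.6% of all genes lower and 10.8% higher. There Nr4a1 also entered the count through its control arrays, and both were called with no filter. In spleen 2 of 8 fell, Fosl2 and Nr4a1, against 6.97% lower and 7.04% higher. In muscle 2 of 7 fell, Egr1 and Junb, against 5.68% lower and 5.68% higher. In liver 0 of 7 passed the limma test, with 3 at an unadjusted p under 0.05, where 2.16% of genes fell and 1.84% rose. In subcutaneous fat 0 of 8 passed, with 3 at an unadjusted p under 0.05, where 0% of 11548 genes fell and 0% rose. In brain 0 of 8 passed, with 0 at an unadjusted p under 0.05, where 0.0516% of genes fell and 0.43% rose. All swim arrays lay below all control arrays for 1598 of 11463 genes tested in visceral fat and 1765 of 11610 in kidney. The same held for 1245 of 11356 in spleen, 1780 of 11347 in muscle and 1199 of 11203 in liver. It held for 638 of 11548 in subcutaneous fat and 704 of 11621 in brain. Groups without overlap, given below for single members, are read beside these counts.

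**Figure D2:**
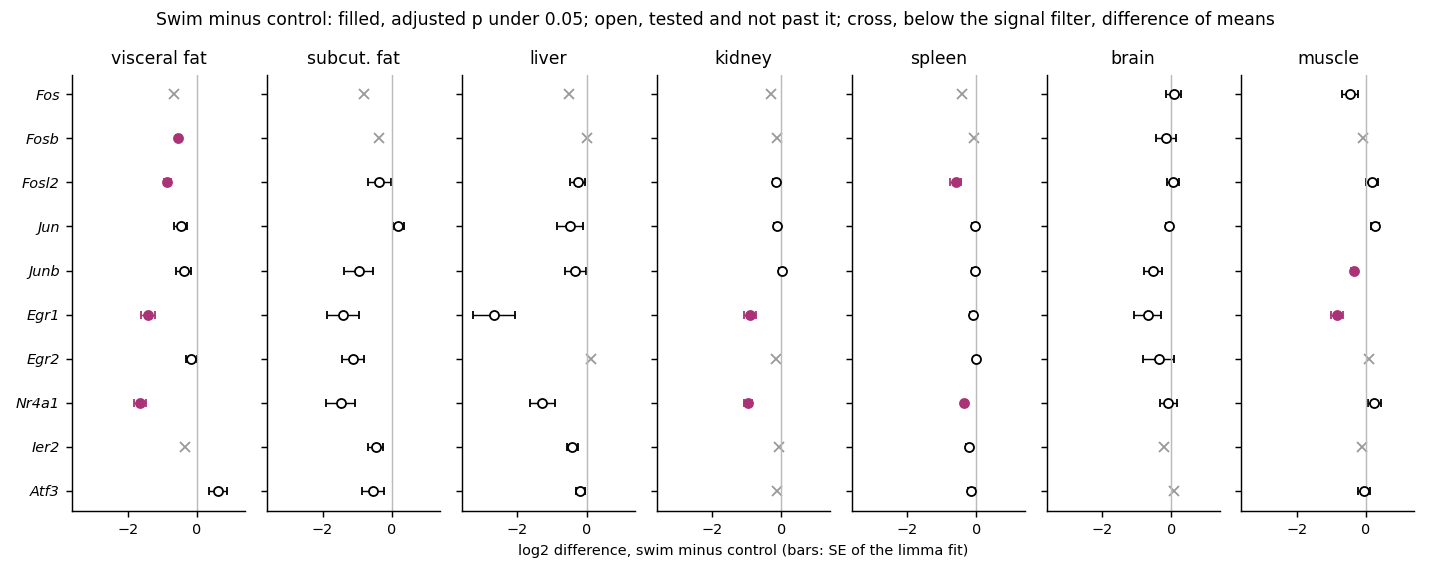
Difference between swim and control arrays (horizontal axis, log2 scale) for 10 genes in 7 tissues, with the standard error of the limma fit. Filled points passed an adjusted p of 0.05, all 10 of them below 0; crosses were below the signal filter and show a difference of means.

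Egr1 fell in 3 tissues and was below 0 in all 7. In visceral fat the control arrays read 7.91, 7.81, 7.94 and 7.01, and the swim arrays 6.27, 6.17, 6.03 and 6.57. The groups did not overlap, although control replicate 4 stood well below the other control arrays. The difference was -1.41 ± 0.20 (SE; limma adjusted p = 0.00195), or 2.65-fold lower.

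In kidney, Egr1 read 7.28, 7.03, 6.50 and 6.54 in control arrays and 5.81, 6.19, 5.89 and 5.81 in swim arrays, again without overlap. It fell by 0.91 ± 0.17 (adjusted p = 0.00402), or 1.88-fold. The call was lost with the values as deposited (-0.76, adjusted p = 0.213) and in 1 fit of all arrays (adjusted p = 0.241). As deposited, Egr1 and Nr4a1 had the same SE in kidney, 0.236, so the p-value of 0.213 does not measure the spread of Egr1 itself. In muscle the control arrays read 7.23, 7.14, 6.56 and 6.65 and the swim arrays 5.89, 6.27 and 5.99, without overlap. The muscle difference was -0.84 ± 0.18 (adjusted p = 0.0288). It missed the threshold in 5 of 7 fits that left out 1 array (controls 41 and 42 and swim replicates 45, 46 and 47), with adjusted p up to 0.0763, and in 1 fit of all arrays (0.265).

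The liver difference was the widest of any member in any tissue. Control arrays read 9.85, 9.73 and 7.03 and swim arrays 6.36, 5.80, 6.41 and 6.20. All control arrays lay above all swim arrays, and control replicate 52, the one with muscle marker signal, lay close to them. The difference of -2.68 ± 0.62 did not pass (adjusted p = 0.0537). Without control replicate 52 it was -3.64 and passed (adjusted p = 0.000216), a setting that compares 2 control arrays with 4. With all arrays kept, it also passed with the values as deposited (adjusted p = 1.12e-21), with arrays centred on their medians (0.00298), with a pseudocount of 64 (0.0452) and in 1 fit of all arrays (2.73e-05). As deposited the SE was 0.23, against 0.62 in the main fit. That p-value therefore does not measure the spread of these control arrays.

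Subcutaneous fat gave Egr1 values of 7.24, 8.53, 9.26 and 7.79 in control arrays and 6.38, 6.26, 7.10 and 7.44 in swim arrays. The groups overlapped through control replicate 17, and the difference of -1.41 ± 0.46 did not pass (adjusted p = 0.206). In brain the control arrays read 9.60, 10.00, 9.92 and 9.02 and the swim arrays 9.22, 9.64, 9.13 and 7.83, where swim replicate 40 was lowest. That difference was -0.68 ± 0.38 (adjusted p = 0.420). In spleen the values were close, 7.68 ± 0.14 (SD, n = 4) in control and 7.58 ± 0.06 (n = 4) in swim arrays, with a difference of -0.10 ± 0.07 (adjusted p = 0.352). With the spleen values as deposited, Egr1 (-0.40, adjusted p = 0.00805), Junb (-0.35, 0.0317) and Ier2 (-0.42, 0.0188) passed, where the median of all genes was -0.27.

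**Figure D3:**
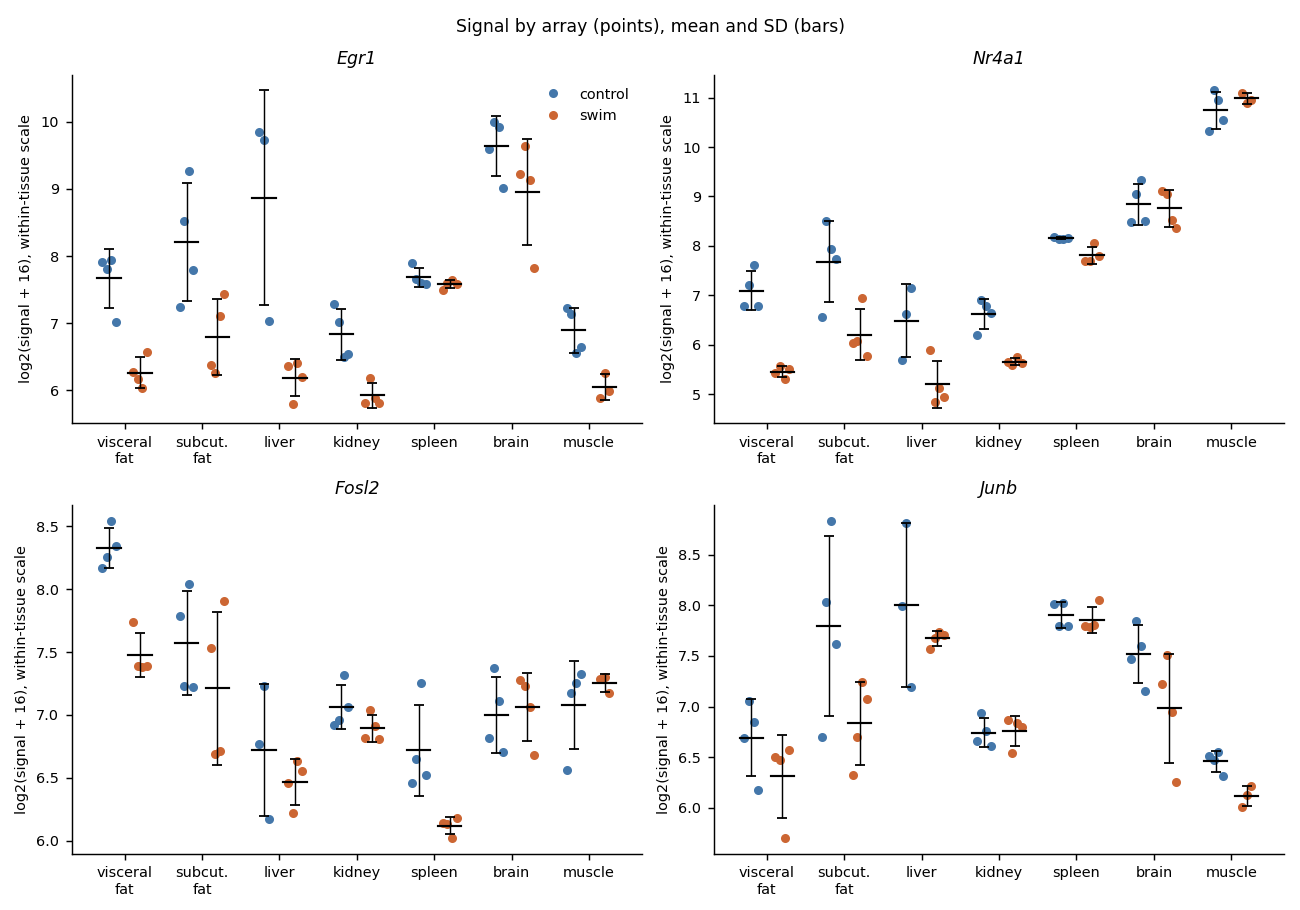
Signal of Egr1, Nr4a1, Fosl2 and Junb on each array (points), as log2(signal + 16) scaled inside each tissue (vertical axis), with the mean and SD of each group (bars), control in blue and swim in orange. The Egr1 swim arrays of visceral fat, liver, kidney and muscle lie below all control arrays of the same tissue, and the Nr4a1 arrays of muscle overlap. Such separation was seen for 1598 of 11463 genes tested in visceral fat and 1199 of 11203 in liver. It was seen for 1765 of 11610 in kidney and 1780 of 11347 in muscle.

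Egr2 passed the test in 0 of the 4 tissues where it could be tested. In subcutaneous fat its control arrays read 6.56, 7.38, 7.96 and 7.07 and its swim arrays 5.81, 5.84, 6.36 and 6.48. No swim array reached the lowest control array, yet the difference of -1.12 ± 0.31 did not pass (adjusted p = 0.203). Differences were -0.16 ± 0.16 in visceral fat, 0.00 ± 0.07 in spleen and -0.36 ± 0.45 in brain. The brain value included swim replicate 40 at 4.90, against 6.29 to 6.93 on the other swim arrays.

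Nr4a1, a nuclear receptor known for inducing metabolic genes in muscle and for marking antigen receptor signals in lymphocytes, also fell in 3 tissues. The visceral fat control arrays read 6.79, 7.22, 7.60 and 6.78 and the swim arrays 5.43, 5.57, 5.30 and 5.52. The swim arrays were close together and far below the controls. The difference of -1.64 ± 0.17 (adjusted p = 0.000461), or 3.12-fold lower, is the widest of the differences that passed.

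In kidney, Nr4a1 read 6.19, 6.89, 6.78 and 6.64 in control arrays and 5.65, 5.60, 5.76 and 5.62 in swim arrays, without overlap. It fell by 0.97 ± 0.13 (adjusted p = 0.000858), or 1.96-fold, and missed the threshold with the values as deposited (adjusted p = 0.0770). That as-deposited fit gave it the same SE as Egr1, 0.236, so its p-value does not measure the spread of Nr4a1 itself. In spleen the control arrays agreed closely at 8.17, 8.14, 8.14 and 8.17, and the swim arrays read 7.70, 7.69, 8.06 and 7.79. All 4 swim arrays were lower, by a small amount: -0.35 ± 0.08 (adjusted p = 0.0278), or 1.27-fold. In 6 of 8 fits that left out 1 spleen array (each of the 4 controls, and swim replicates 29 and 32) the call was lost, with adjusted p up to 0.0707, as it was in 1 fit of all arrays (0.588). With the values as deposited the spleen difference was -0.65, where the median of all genes was -0.27.

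In muscle, where Nr4a1 was highest at rest, it did not pass. Its control arrays read 10.32, 11.15, 10.95 and 10.54 and its swim arrays 11.10, 10.89 and 10.96. The swim arrays lay inside the control range, and the difference was 0.24 ± 0.19 (adjusted p = 0.404). With the values as deposited the sign turned, to -0.04. In brain the difference was -0.09 ± 0.24 (adjusted p = 0.891). In liver it was -1.28 ± 0.36 (adjusted p = 0.0878), from control arrays at 5.70, 6.61 and 7.15 and swim arrays at 5.89, 4.85, 5.12 and 4.95. Control replicate 49 lay below swim replicate 53, so the liver groups overlapped. The liver difference passed with the values as deposited (adjusted p = 1.33e-07), with arrays centred on their medians (0.0200) and in 1 fit of all arrays (0.00901). Its SE as deposited was 0.18, against 0.36 in the main fit, so that p-value does not measure the spread of these arrays. In subcutaneous fat control arrays read 6.56, 8.50, 7.94 and 7.73 and swim arrays 6.04, 6.07, 6.95 and 5.76. This difference of -1.48 ± 0.42 did not pass (adjusted p = 0.205).

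Among the FOS genes, Fosl2 fell in visceral fat and spleen. The visceral fat control arrays read 8.17, 8.26, 8.55 and 8.34 and the swim arrays 7.74, 7.39, 7.38 and 7.39. No array overlapped, and swim replicate 5 stood above the other 3. The difference was -0.85 ± 0.11 (adjusted p = 0.00126), or 1.81-fold lower, in the tissue where Fosl2 was highest at rest. In spleen the control arrays read 6.46, 6.65, 7.25 and 6.52 and the swim arrays 6.14, 6.13, 6.02 and 6.18. The spleen difference of -0.60 ± 0.16 passed (adjusted p = 0.0360). It missed the threshold in 6 of 8 fits that left out 1 array (controls 25, 26 and 28 and swim replicates 29, 31 and 32), with adjusted p up to 0.0885. Without control replicate 26, the array with hepatocyte signal, Fosl2 was -0.62 (adjusted p = 0.0687) and Nr4a1 -0.35 (0.0608). The Fosl2 call was also lost with no filter (0.0554) and in 1 fit of all arrays (0.0928). In the other 5 tissues the Fosl2 difference ran from -0.36 ± 0.33 in subcutaneous fat to 0.18 ± 0.17 in muscle, and none passed.

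Fosb could be tested in visceral fat and brain. In visceral fat the control arrays read 6.13, 5.99, 6.06 and 5.91 and the swim arrays 5.54, 5.51, 5.40 and 5.48. All swim arrays lay below the filter, which stood at 5.74, and below all controls. The difference was -0.54 ± 0.07 (adjusted p = 0.00164), or 1.46-fold. Leaving out any 1 of the 4 visceral fat control arrays put Fosb below the filter, so it was then not tested, and with the values as deposited it was -0.35 (adjusted p = 0.391). As deposited, Fosb and Egr2 had the same SE in visceral fat, 0.221, so that p-value does not measure the spread of Fosb itself. Relative to the median of all genes Fosb was -0.51, and -0.25 as deposited or with arrays centred on their medians. In brain, where Fosb was highest at rest, the difference was -0.15 ± 0.30 (adjusted p = 0.829).

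Fos, the partner of JUN in AP-1 and the usual marker of recent activity, was above the filter in brain and muscle only. Its brain control arrays read 6.84, 7.60, 7.87 and 7.28 and its swim arrays 7.48, 7.46, 7.21 and 7.74. The swim arrays lay inside the control range, with a difference of 0.07 ± 0.21 (adjusted p = 0.893). In muscle the difference was -0.46 ± 0.22 (adjusted p = 0.203). In the 5 tissues below the filter, differences of means ran from -0.81 in subcutaneous fat to -0.30 in kidney. In spleen the groups did not overlap (controls 5.56, 5.98, 5.95 and 5.51, swim 5.36, 5.41, 5.38 and 5.17; exact two-sided permutation p = 0.0286, the smallest that 4 against 4 allows).

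Of the JUN genes, Junb fell in 1 tissue. Junb, an AP-1 subunit that often restrains JUN, fell in muscle, from 6.51, 6.47, 6.55 and 6.31 in control arrays to 6.01, 6.12 and 6.22 in swim arrays. The groups did not overlap, and the difference was -0.34 ± 0.08 (adjusted p = 0.0343). That call was lost in 6 of 7 fits that left out 1 array, all but control replicate 44, with adjusted p up to 0.104. It was also lost as deposited (0.229), with arrays centred on their medians (0.0590), with no filter (0.0628) and in 1 fit of all arrays (0.588). As deposited, Junb, Jun, Fosl2 and Nr4a1 had the same SE in muscle, 0.214, so the value of 0.229 does not measure the spread of Junb itself. Elsewhere the Junb difference ran from -0.96 ± 0.43 in subcutaneous fat to 0.02 ± 0.09 in kidney. Jun passed in 0 of 7 tissues. Its values were -0.47 ± 0.19 in visceral fat (adjusted p = 0.0996), -0.48 ± 0.37 in liver, -0.12 ± 0.11 in kidney, -0.04 ± 0.09 in spleen, -0.06 ± 0.08 in brain, 0.19 ± 0.16 in subcutaneous fat and 0.27 ± 0.11 in muscle (adjusted p = 0.149). With visceral fat arrays centred on their medians, Jun was -0.76 and passed (adjusted p = 0.00633), where the median of all genes was -0.22.

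Ier2 was tested in 3 tissues and passed in 0, with differences of -0.47 ± 0.22 in subcutaneous fat, -0.41 ± 0.16 in liver and -0.22 ± 0.09 in spleen. In visceral fat it lay just below the filter, with control arrays at 5.76, 5.88, 5.91 and 5.76 and swim arrays at 5.38, 5.60, 5.46 and 5.50. These groups did not overlap (exact two-sided permutation p = 0.0286), and with no filter the limma difference of -0.34 ± 0.08 passed (adjusted p = 0.0196). Of the 19 pairs below the filter, 2 had an exact permutation p under 0.05, Fos in spleen and Ier2 in visceral fat, and 0 did after adjustment over the 19.

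Atf3, induced by many cell stresses, gave the largest difference above 0. In visceral fat the control arrays read 6.93, 6.73, 6.98 and 6.44 and the swim arrays 8.26, 6.94, 7.19 and 7.07. Swim replicate 5 was far above the rest, the groups overlapped, and the difference of 0.59 ± 0.26 did not pass (adjusted p = 0.124). In 1 fit of all arrays the same difference passed (adjusted p = 0.0392), the one member called higher in any tissue under the alternatives run. In subcutaneous fat it was control replicate 17 that stood out, at 8.02 against 6.54 to 6.76 on the other control arrays. Atf3 differences were -0.55 ± 0.32 there, -0.18 ± 0.12 in liver, -0.15 ± 0.10 in spleen and -0.06 ± 0.18 in muscle.

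Other transcripts differed in the same arrays, and their part in the results above was not tested. Their counts are read beside the shares of all genes called. These were 12.1% lower and 11.3% higher in visceral fat, 13.6% and 10.8% in kidney, and 6.97% and 7.04% in spleen. They were 5.68% and 5.68% in muscle and 2.16% and 1.84% in liver. In kidney 6 of 7 macrophage markers tested fell, and their summed signal was 1272 to 1477 in control and 867 to 1019 in swim arrays. In spleen 7 of 8 macrophage markers fell (6645 to 7488 in control, 3631 to 5949 in swim arrays), as did 7 of 7 neutrophil markers (2634 to 5418 against 212 to 641) and 4 of 7 endothelial markers (2265 to 2599 against 1910 to 2160). In visceral fat 5 of 7 endothelial markers rose (2938 to 3602 against 3909 to 4643) and 2 of 8 macrophage markers rose (2373 to 4824 against 3314 to 4847, sums that overlapped), while the 1 neutrophil marker tested fell (list sums 201 to 279 against 156 to 181). In liver 7 of 8 macrophage markers fell (3791 to 3894 against 2070 to 2807), and in muscle 3 of 8 did (961 to 1335 against 858 to 960), while 2 of 7 endothelial markers rose (2200 to 2444 against 2492 to 3198). In spleen 2 of 7 T cell markers rose (5784 to 6350 against 6263 to 7842). Heat shock genes rose in spleen (5 of 8) and kidney (4 of 8), with 1 of 8 higher in liver and in muscle and 1 of 8 lower in visceral fat, near the share of all genes there. Genes of the circadian clock also passed: 12 of 14 tested in visceral fat (8 higher and 4 lower), 12 of 13 in kidney (9 and 3), 11 of 14 in liver (7 and 4), 10 of 14 in muscle (7 and 3) and 4 of 10 in spleen (all higher). The hour of tissue collection was not given in the sources used here.

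In subcutaneous fat, leaving out control replicate 17 brought Egr1 to -1.70 (adjusted p = 0.0217), Nr4a1 to -1.82 (0.0145), Egr2 to -1.32 (0.0157) and Junb to -1.30 (0.0242). These 4 then passed along with 3976 genes in all, and the 3 remaining control arrays are those with the strong B cell sums. Their T cell sums were 8457 to 12136, against 165 in control replicate 17 and 173 to 4469 in the swim arrays. Macrophage sums were 4411 to 9603 in all 4 control arrays and 2691 to 3835 in the swim arrays. In these arrays lymph node and fat RNA cannot be told apart for the members. With the mean of the B cell list as a covariate 0 members passed, and 0 did without swim replicates 22 and 23. In both settings 0 of all genes tested passed, as in the main fit. These 2 settings therefore cannot show whether the B cell signal or those arrays bear on the members. In 1 fit of all arrays 6 members passed in this tissue, all lower (Nr4a1, Egr2, Ier2, Egr1, Junb and Atf3, adjusted p from 4.91e-05 to 0.0261), along with 6626 genes in all. In liver, leaving out control replicate 52 also brought Ier2 past the threshold, at -0.64 (adjusted p = 0.00658).

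A fit of all 54 arrays asked whether the swim effect of a member differed between the 7 tissues. It used array weights estimated for each tissue and could test the 5 members whose mean over both groups lay above the filter in all tissues. In visceral fat, liver and kidney the Nr4a1 swim means lay under the filter. Nr4a1 therefore entered the F test and the average below through its control arrays in those tissues. The F test over 6 contrasts passed for Nr4a1 (adjusted p = 8.53e-05), Egr1 (0.00175) and Fosl2 (0.00936), and not for Jun (0.163) or Junb (0.295). The Fosl2 call was lost with the values as deposited (adjusted p = 0.131). Of all 8570 genes in that fit 52.5% passed, so 3 of 5 is near the background, and in simulated data this F test and the average below called more unchanged genes than the threshold allows. The fit takes all arrays as independent, and the labels do not say whether tissues came from the same mice; if they did, the errors of the average may be too small. Averaged over tissues, Egr1 was -1.15 ± 0.17 (adjusted p = 1.32e-06), Nr4a1 -0.79 ± 0.12 (9.31e-07), Junb -0.37 ± 0.11 (0.00660) and Fosl2 -0.29 ± 0.09 (0.0113). Jun averaged -0.10 ± 0.10 (0.433). Thus 4 of 5 were lower on average, where 16.9% of genes were lower and 18.3% higher.

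Correlations between members were taken over arrays of the same group. For each array the deviation from its group mean was taken, and 45 pairs of members were correlated over 54 arrays, with 100000 permutations of arrays within groups and adjustment over the 45 pairs. Of these, 11 pairs passed and all 11 were positive. Members of an array share its RNA and its scaling, and with the values as deposited 32 pairs passed. An r of 0.39 or more, the lowest among the 11, was reached by 31.1% of member pairs and by 15.8% of all pairs of the 8570 genes tested in every tissue. The 2 sets are unlike, since only 5 of the 10 members were tested in every tissue and the cut-off was taken from the member pairs. The median r was 0.30 for members and 0.05 for all pairs. The strongest pair was Junb and Egr1 (Pearson r = 0.80, adjusted permutation p = 0.000337; Spearman rho = 0.67, adjusted permutation p = 0.00135). Without the 2 arrays farthest from the median r was 0.76, and without subcutaneous fat it was 0.75.

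**Figure D4:**
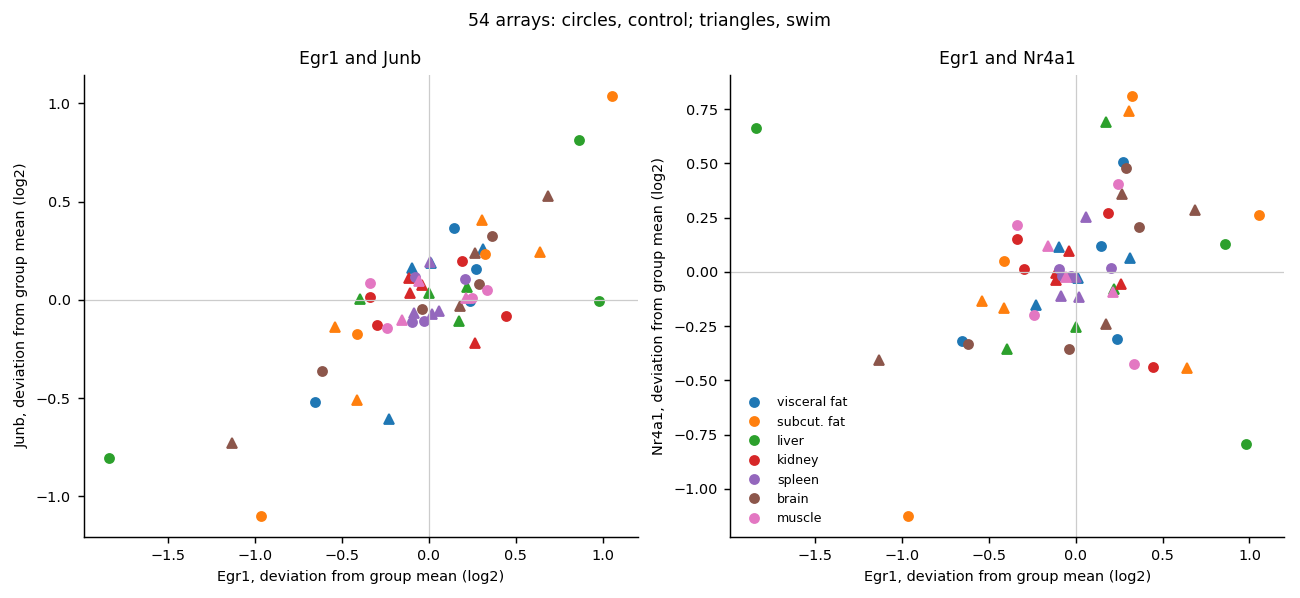
Deviation of each array from its group mean (log2) for Egr1 on the horizontal axis against Junb (left) and Nr4a1 (right), 54 arrays coloured by tissue, circles for control and triangles for swim. Egr1 and Junb lie along a diagonal (r = 0.80), with liver control 52, subcutaneous fat control 17 and brain swim 40 at the low end, and Egr1 and Nr4a1 show no such line (r = 0.13).

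Within tissues the Junb and Egr1 correlation was 0.98 in brain (n = 8), 0.93 in subcutaneous fat, 0.82 in liver (n = 7), 0.78 in visceral fat, 0.34 in spleen, 0.25 in muscle (n = 7) and -0.17 in kidney. The kidney value is the one tissue of 7 below 0. Fosb and Egr2 followed (r = 0.69, rho = 0.64), then Junb and Egr2 (r = 0.69, rho = 0.65) and Fosb and Junb (r = 0.61, rho = 0.71), each with an adjusted permutation p of 0.000337 for r. Fosb lay below the filter in 5 of the 7 tissues, so most of its values are dim signals. Egr1 and Nr4a1, which fell together in visceral fat and kidney, did not pass as a pair (r = 0.13, adjusted permutation p = 0.789). Within tissues that pair ran from -0.54 in liver to 0.75 in brain.

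The genes whose deviations were most like the mean of the 5 members tested in all tissues were ranked among 8565 others. They were Trmt61a (r = 0.68 over 54 arrays), Kcnk6 (0.66), Midn (0.66), Sbno2 (0.64) and Srf (0.64). Spearman rho was 0.67, 0.52, 0.52, 0.55 and 0.54 in the same order. Without subcutaneous fat, r was 0.65, 0.50, 0.57, 0.46 and 0.60. Kcnk6 encodes a potassium channel, Trmt61a a tRNA methyltransferase subunit, and Srf the serum response factor. In the swim test Srf fell in visceral fat (-0.44 ± 0.12, adjusted p = 0.0281), Kcnk6 in kidney (-0.34 ± 0.08, adjusted p = 0.0181) and Midn in spleen (-0.25 ± 0.06, adjusted p = 0.0351). Trmt61a and Sbno2 passed in none of the 7 tissues.

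The wider early response was read from lists of other genes of the same program, whose counts stand beside the shares of all genes given above (12.1% lower and 11.3% higher in visceral fat, 13.6% and 10.8% in kidney, 6.97% and 7.04% in spleen, 5.68% and 5.68% in muscle). Among other early transcription factors 19 were tested in visceral fat, of which 3 fell (Myc at -0.85 ± 0.16, Jund at -0.57 ± 0.11 and Nfil3 at -0.68 ± 0.14) and 1 rose, Bhlhe40 (1.30 ± 0.29). Their median was -0.11, against -0.03 for all genes. Nfil3 and Bhlhe40 also belong to the clock network. Jund was also listed among AP-1 partners, so the counts that include it here and below are not of early genes alone. In kidney 2 of 17 fell (Mafk at -0.47 ± 0.05 and Jund at -0.24 ± 0.07) and 2 rose (Atf4, 0.28 ± 0.05, and Hes1, 0.25 ± 0.08), shares near those of all kidney genes. In spleen 2 of 18 fell, Jund at -0.37 ± 0.08 and Klf10 at -0.33 ± 0.08, and in liver 1 of 15 fell, Nfil3 at -1.12 ± 0.21. In muscle 0 of 20 fell and 3 rose: Klf6 (0.55 ± 0.09), Myc (0.51 ± 0.10) and Klf4 (0.38 ± 0.10). Myc, a growth regulator, thus passed in opposite directions in visceral fat and muscle, and that difference was not tested.

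**Figure D5:**
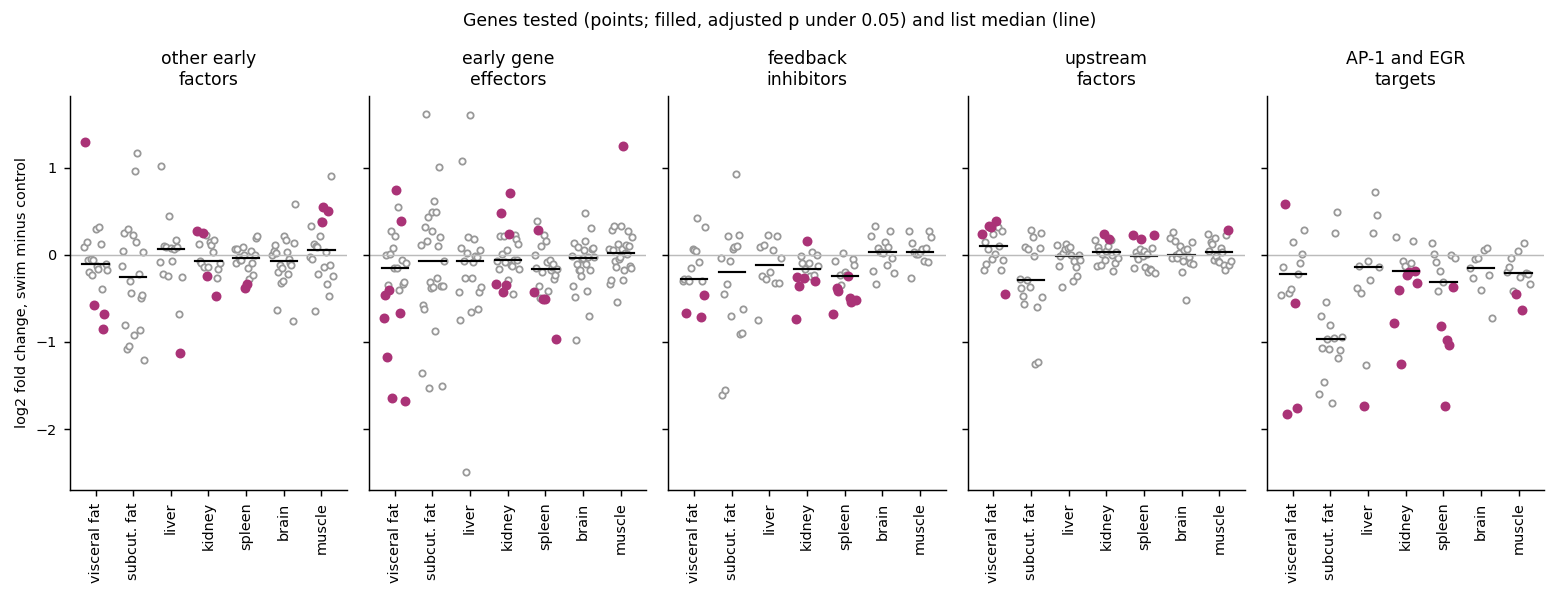
Difference between swim and control arrays (vertical axis, log2 scale) for genes of 5 lists in 7 tissues; each point is a gene tested, filled where the adjusted p is under 0.05, and lines are list medians. Feedback inhibitors in kidney and spleen hold 5 and 7 genes that fell, and subcutaneous fat and brain hold none that passed.

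Feedback inhibitors are genes that early signals induce and that then shut the signal down, such as the DUSP phosphatases, the Sprouty proteins and the mRNA decay factor ZFP36. In spleen 7 of 15 fell and 0 rose, including Spry1 (-0.50 ± 0.06), Dusp4 (-0.37 ± 0.08), Spry4 (-0.54 ± 0.12) and Dusp1 (-0.67 ± 0.17). In kidney 5 of 15 fell, including Dusp1 (-0.73 ± 0.10), Dusp5 (-0.35 ± 0.06), the EGR co-repressor Nab1 (-0.26 ± 0.05) and Zfp36 (-0.30 ± 0.06), and 1 rose, Spred1 (0.16 ± 0.05). In visceral fat 3 of 15 fell: Dusp5 (-0.67 ± 0.16), Spry4 (-0.71 ± 0.18) and Zfp36l1 (-0.46 ± 0.15). The list medians were -0.24 in spleen, -0.16 in kidney and -0.27 in visceral fat, against 0.00, 0.00 and -0.03 for all genes. In muscle 0 of 13 and in liver 0 of 12 passed.

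Early gene effectors are early genes that do not encode transcription factors. In visceral fat 7 of 23 fell, including Gadd45g (-1.64 ± 0.29), a growth arrest protein, the matricellular proteins Thbs1 (-1.68 ± 0.51) and Ccn1 (-1.17 ± 0.27), Apold1 (-0.73 ± 0.15) and Ptgs2 (-0.67 ± 0.16), the inducible cyclooxygenase. There 2 rose, Per1 (0.75 ± 0.24) and Rhob (0.39 ± 0.11). In kidney 3 of 23 fell (Hbegf, Gadd45a and Apold1) and 3 rose (Per1, 0.71 ± 0.14, Ccn2 and Mcl1), again near the shares of all kidney genes. In spleen 4 of 23 fell, Thbs1 at -0.97 ± 0.17, Hbegf, Ier3 and Apold1, and 1 rose, Ccn2. Muscle had 1 of 25, Per1 at 1.25 ± 0.27, a clock gene that stress hormones also induce. Apold1 was the one effector that fell in visceral fat, kidney and spleen alike.

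Upstream factors, which switch the early genes on, mostly did not pass. In visceral fat 4 of 17 rose (Elk4, Mef2a, Mapk14 and Creb1, by 0.25 to 0.39) and 1 fell, Srf. In kidney 2 of 17 rose (Mapk14, 0.24 ± 0.06, and Mef2a, 0.19 ± 0.05), in spleen 3 of 17 rose (Rps6ka3, Creb1 and Mapk14), and in muscle 1 of 17, Mrtfb (0.29 ± 0.08). Among known AP-1 and EGR targets, Cdkn1a, which encodes the cell cycle inhibitor p21, fell in visceral fat (-1.82 ± 0.20), kidney (-1.25 ± 0.15) and liver (-1.73 ± 0.35). It is also a glucocorticoid and p53 target. In kidney 7 of 12 targets fell and 0 rose, with Cd44 (-0.40 ± 0.06) and Ccl2 (-0.78 ± 0.14) among them, in spleen 5 of 13 fell and 0 rose, with the metallothioneins Mt1 (-0.97 ± 0.14) and Mt2 (-1.03 ± 0.19) among them, and in visceral fat 3 of 13 fell and 1 rose, Cd44 (0.59 ± 0.18). Cd44, Ccl2, Mmp9 and Hmox1 are also expressed by macrophages or neutrophils, whose markers differed in the same arrays. The part of these cells in the target counts was not tested. Mt2 was also listed among glucocorticoid-responsive genes, of which 14 were tested in spleen, where 3 fell and 2 rose. The part of glucocorticoids was not tested either. Muscle had 2 of 12 AP-1 and EGR targets lower (Mmp14, at -0.63 ± 0.11, and Cxcl1) and liver 1 of 11. In subcutaneous fat and brain 0 genes of these 5 lists passed.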

How the data were processed

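The deposited values were linear probe set intensity values, made with PLIER per the submitters' processing notes, which also name limma without a version; PLIER's settings and the build are not stated there. The 75th percentiles of arrays of one group differed by up to 1.89-fold, and the authors' values were taken as unscaled between arrays. Here log2(signal + 16) was quantile normalized within each tissue, or over all 54 arrays for resting levels and marker sums. Probe sets with 1 symbol (21086) were kept, those with several (1867) or none (2964) left out; the lowest 40% by mean signal were dropped per tissue, and the highest probe set stood for its gene. Tests used R 4.3.3 and limma 3.58.1 (lmFit, eBayes, two-sided, Benjamini-Hochberg), and were tested on simulated data. Correlations used scipy 1.17.1. Members that share probes with relatives were not examined.

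Members and gene lists were chosen with earlier results of these data known. Lists matched 220 of 235 names. Named genes are all members, up to 3 list genes of smallest p per tissue, organ markers and the 5 genes most like the members; other named list genes were chosen after their values were seen. Alternatives were other scalings, pseudocounts of 1 and 64, no filter, the mean of probe sets, trend and robust options, 1 fit of all arrays, and leaving out arrays or subcutaneous fat.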

Additional observations from a re-analysis of the deposited data

Results flagged for a closer look

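Of 88 groups of 4 arrays tested for a single array apart from the rest, 7 had one, where chance gives about 1 in 20. In visceral fat these were Egr1 in control replicate 4 (7.01), Jun in control replicate 3 (9.87), Fosl2 in swim replicate 5 (7.74) and Junb in swim replicate 7 (5.70). The others were Atf3 in subcutaneous fat control replicate 17 (8.02), Jun in brain swim replicate 38 (9.02) and Junb in spleen swim replicate 32 (8.05), all on the within-tissue log2 scale.

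The swim effect differed between tissues by the limma F test for Nr4a1 (adjusted p = 8.53e-05), Egr1 (adjusted p = 0.00175) and Fosl2 (adjusted p = 0.00936), a test that 52.5% of 8570 genes passed and that over-called in simulated data. For Fosl2 it was lost with the values as deposited (adjusted p = 0.131). Nr4a1 fell by 1.64 in visceral fat and stood 0.24 above control in muscle. Egr1 fell by 1.41 in visceral fat, with -0.10 in spleen. Fosl2 fell by 0.85 in visceral fat and by 0.60 in spleen, with 0.18 in muscle.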

How the results depend on the processing

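All 10 calls kept their direction under each alternative that could test them: of 164 values 129 stayed past the threshold, 35 did not and 0 reversed. Of 698 values for the 41 uncalled pairs, 643 kept direction and side, 24 passed and 31 reversed. Members called became 5 in visceral fat (with Atf3, higher), 6 in subcutaneous fat, 2 in liver, 1 in kidney, 0 in spleen and 0 in muscle with 1 fit of all arrays; 2 in liver, 0 in kidney, 5 in spleen and 1 in muscle with the values as deposited; 2 in liver and 1 in muscle with arrays centred on their medians; 1 in spleen and 1 in muscle with no filter; and 1 in liver with a pseudocount of 64. Correlated pairs became 32 with the values as deposited. The 1 fit of all arrays kept each log2 difference and changed only its SE, since 1 variance per gene served all tissues without weights. For Egr1 that SE was 0.39 in kidney and subcutaneous fat and 0.42 in liver and muscle. The as-deposited kidney fit gave Egr1 and Nr4a1 the same SE, 0.236. In visceral fat it was 0.221 for both Fosb and Egr2, and in muscle 0.214 for Fosl2, Jun, Junb and Nr4a1. The as-deposited p-values of these tissues do not measure the spread of each gene. The cause of the other changes was not tested. Leaving out 1 array gave 0 to 4 calls in subcutaneous fat, 0 to 2 in liver, spleen and muscle, 3 to 4 in visceral fat, 2 in kidney and 0 in brain. Log2 differences that turned sign as deposited were Egr2 in visceral fat (0.0045), Egr2 in spleen (-0.22; -0.036 median-centred), Fos (-0.067) and Fosl2 (-0.070) in brain, and Fosl2 (-0.0052), Jun (-0.014) and Nr4a1 (-0.038) in muscle. Fosl2 in subcutaneous fat was 0.15 without swim replicates 22 and 23. With 1 array left out, ranges spanning 0 were, in liver, Jun -0.93 to 0.0089 and Junb -0.73 to 0.081; in kidney, Junb -0.025 to 0.092; in spleen, Jun -0.13 to 0.013 and Egr2 -0.025 to 0.053; in brain, Fos -0.11 to 0.23, Fosb -0.31 to 0.10, Fosl2 -0.033 to 0.19, Egr2 -0.59 to 0.085 and Nr4a1 -0.21 to 0.075; and in muscle, Atf3 -0.21 to 0.14. No paired analysis was possible because the labels number each array once.

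The median of all genes moved by over 0.1 in visceral fat with arrays centred on their medians (to -0.22) and, with the values as deposited, in kidney (to 0.11), spleen (-0.27), brain (-0.20) and muscle (-0.23). The share of calls that were lower went from 51.6% to 86.6% (median-centred) in visceral fat, from 55.6% to 73.7% in kidney (33.3% as deposited), from 49.8% to 82.8% in spleen (98.7%), from 49.96% to 76.3% in muscle (77.4%) and from 10.7% to 31.1% in brain (0%). Relative to that median, Egr1 and Nr4a1 in visceral fat were -1.37 and -1.61 within tissue, -1.23 and -1.39 as deposited or median-centred, and -1.29 and -1.51 over all arrays. Fosb there was -0.51, -0.25 and -0.49 in the same order, and in spleen Fosl2 was -0.61, -0.47 and -0.60 and Nr4a1 -0.35, -0.38 and -0.39. Dim signal limits Fos, Fosb and Ier2 most, with 14 of the 19 untested pairs.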
